A study of Mus musculus with 5 samples.

Results

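The cells described here were neutrophils of the kidney that still carried the transcripts of secondary granules, Camp, Ngp and Ltf. They were selected on measured values: a barcode had at least 200 detected genes, under 50% mitochondrial UMIs (unique molecular identifiers, each standing for 1 captured transcript), at least 20 UMIs of S100a8 and S100a9 together, at least 10 UMIs of Camp, Ngp and Ltf together, and no UMI of Cd79a, Cd3d, Cd3e or Cd3g. This rule was met by 87 of 22591 kept cells. They are called immature neutrophils, and neutrophils passing the same filters with at most 2 UMIs of Camp, Ngp and Ltf, 313 cells, are called mature neutrophils; 9 neutrophils lay between the thresholds, so that 409 neutrophils were found in all.

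Neutrophils mature in the bone marrow from promyelocytes through myelocytes and metamyelocytes to segmented cells. The genes for granule proteins are switched on in waves: primary (azurophil) granule proteases and myeloperoxidase first, in dividing cells; secondary (specific) granule proteins next, under the transcription factor C/EBP epsilon; gelatinase granule proteins and the receptors of circulating cells last. S100a8 and S100a9, which together form calprotectin, are abundant throughout the later stages and in the circulating cell, whereas the transcripts of secondary granule proteins are largely lost before release into blood.

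The study used droplet single-cell RNA sequencing on kidney cells of C57BL/6j mice with lupus induced by pristane, a hydrocarbon oil. Pristane was common to both groups, which received either saline (n = 2) or a fecal microbiota transplant (FMT) from MRL/MpJ mice (n = 3). Age, sex and the doses were not given in the labels, and no kidney without pristane was analysed here. Each library is a single sample of its group; the labels do not say whether the kidney was freed of blood, so cells in kidney tissue and cells in its vessels cannot be told apart. The labels name tubular epithelial cells and B cells as the collected material. Libraries held 15333445 to 45309178 UMIs and 2858 to 6312 kept cells. Between any pair of libraries 3 to 12 barcode strings were shared, and 1 immature neutrophil had a barcode string that also occurred in another library.

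The label was compared with marker genes of other cells that the rule did not use. The levels of the rule's own genes, and the absence of Cd79a and Cd3 transcripts, were fixed by selection and check nothing. The 7 eosinophil, basophil and mast cell markers summed to 2.908 CPM (UMIs scaled to a library total of 1000000) and the 7 endothelial markers to 5.817 CPM in the pooled cells. The 8 B cell markers other than Cd79a summed to 10.18 CPM and the 10 T and NK cell markers other than the Cd3 genes to 7.271 CPM, values that the removal of lymphocyte transcripts by the rule also lowers. Proximal tubule markers, 15 genes, summed to 1528 CPM against 17720 CPM in all kept cells that were not neutrophils, and ranged from 225.3 CPM in FMT mouse 2 to 12010 CPM in FMT mouse 1. The 15 monocyte and macrophage markers summed to 972.8 CPM against 784.8 CPM in mature neutrophils and 2625 CPM in the cells that were not neutrophils. The 8 erythroid and platelet markers summed to 773.6 CPM, with 1369 CPM in saline mouse 1. In the mature class they summed to 4250 CPM and the tubule markers to 2936 CPM, so that class also held transcripts of other cells. In saline mouse 1 a mature class cell held 26 UMIs of S100a8 and S100a9 among 11223. Scrublet scores marked 2 of the 87 cells as likely doublets, and 7 cells held at least 5 UMIs of the tubule genes Slc34a1 and Lrp2.

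The promoters of the 3 secondary granule genes of the rule and of Lcn2, another gene of the same granules, are shown. C/EBP epsilon is known to drive them, and all 4 genes are high in these cells, the 3 of the rule by selection. The sequences are from RefSeq (GRCm38.p6), cover the 250 bases upstream of the annotated RefSeq start and are written 5′ to 3′ on the strand of the gene. Capitals mark the C/EBP-type motif TTGCNNAA, searched on both strands. Camp, Ngp and Ltf all lie on chromosome 9.
Camp: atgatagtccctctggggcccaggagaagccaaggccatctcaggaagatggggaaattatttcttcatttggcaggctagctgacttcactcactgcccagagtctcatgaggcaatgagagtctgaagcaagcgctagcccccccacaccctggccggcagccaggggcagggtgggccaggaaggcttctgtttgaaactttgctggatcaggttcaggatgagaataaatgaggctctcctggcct
Ngp: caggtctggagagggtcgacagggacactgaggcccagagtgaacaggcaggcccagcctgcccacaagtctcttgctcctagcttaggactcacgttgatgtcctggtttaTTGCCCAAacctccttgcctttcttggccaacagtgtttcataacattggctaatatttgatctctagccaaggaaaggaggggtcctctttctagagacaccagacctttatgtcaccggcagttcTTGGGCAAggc
Ltf: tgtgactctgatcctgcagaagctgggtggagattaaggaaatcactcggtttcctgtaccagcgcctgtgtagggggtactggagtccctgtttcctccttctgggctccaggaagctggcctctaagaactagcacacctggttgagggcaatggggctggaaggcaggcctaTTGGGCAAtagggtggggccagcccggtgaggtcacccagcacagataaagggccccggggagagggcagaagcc
Lcn2: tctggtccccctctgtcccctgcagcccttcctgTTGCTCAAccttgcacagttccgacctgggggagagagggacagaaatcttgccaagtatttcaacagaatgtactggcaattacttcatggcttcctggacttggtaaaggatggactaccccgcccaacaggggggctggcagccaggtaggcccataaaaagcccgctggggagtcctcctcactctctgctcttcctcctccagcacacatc
These windows are chr9:109849457-109849706 on the minus strand for Camp, chr9:110419558-110419807 on the plus strand for Ngp, chr9:111019042-111019291 on the plus strand for Ltf and chr2:32387740-32387989 on the minus strand for Lcn2. In the GENCODE M21 annotation of the same assembly, Camp spans chr9:109847379-109849617, Ngp chr9:110419747-110423012, Ltf chr9:111019271-111042767 and Lcn2 chr2:32384633-32388252, so that the longest annotated transcripts start inside or upstream of the windows printed. The motif occurred 2 times in the Ngp window, at 138 and 11 bases upstream of the start, 1 time in the Ltf window at 75 bases and 1 time in the Lcn2 window at 216 bases. These letters were absent from the window of Camp, and likewise from those of Chil3 and Elane. Among 32841 mouse promoters of the same length, 9.57% held the motif. The shorter ETS-type motif GAGGAA, of the kind PU.1 binds, was present in the windows of Ltf, Lcn2 and Elane and in 23.3% of all promoters.

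Camp, Ngp and Ltf split the neutrophils into a set with almost none of these transcripts and a set with many. Of 409 neutrophils 280 had 0 UMIs of the 3 genes, 72 had 50 or more and 60 had 100 or more. The selected cells held a median of 243 such UMIs and at most 3184. Just inside the threshold, 10 neutrophils had 10 to 20 of these UMIs, and just outside it 9 had 3 to 9. The threshold on S100a8 and S100a9 decided nothing for the immature cells, because the lowest of the 87 cells held 57 of these UMIs. Another 12 barcodes met the thresholds on granule genes but held a lymphocyte transcript and were left out.

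**Figure D1:**
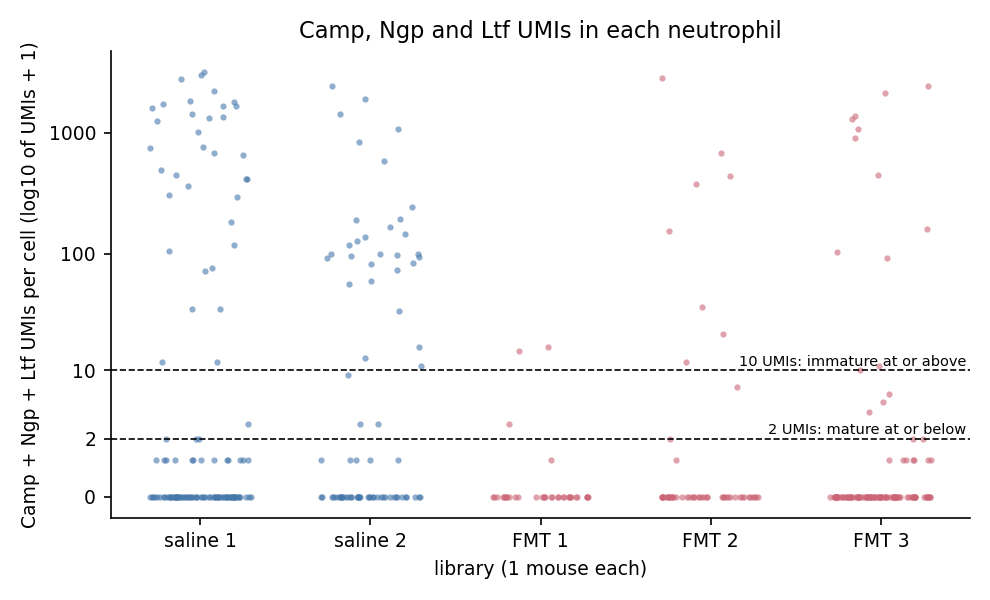
UMIs of Camp, Ngp and Ltf in each of the 409 neutrophils (points; axis log10 of UMIs + 1, ticks in UMIs) by library, with saline mice in blue and FMT mice in red and the thresholds of 10 and 2 UMIs as dashed lines. Most cells lie at 0 (280 cells) or at 50 and above (72 cells), with few between.

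Some UMIs of these genes also lay in cells of other types, and their source was not tested. Proximal tubule cells with a Camp, Ngp or Ltf UMI made up 11.9% and 4.43% of their type for saline mice 1 and 2, and 0.392%, 0.457% and 3.80% for FMT mice 1, 2 and 3. No proximal tubule cell (11347 cells, median 5789 UMIs) or T cell (2955 cells) held more than 3, and no B cell (2893 cells) more than 2. The threshold of 10 stood above every cell counted in these 3 types, but none of these held 20 UMIs of S100a8 and S100a9. The highest tubule cell had 19. Cells with more were counted as neutrophils, among them the 7 immature neutrophils with at least 5 UMIs of Slc34a1 and Lrp2. In saline mouse 2 such a cell held 47 of these tubule UMIs and 33 of Camp, Ngp and Ltf. The comparison therefore cannot show whether the threshold excluded stray transcripts in cells rich in S100a8 and S100a9.

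The 87 cells held a median of 6000 UMIs (range 533 to 27974) and 1306 genes, against a median of 2513 UMIs in mature neutrophils. Their depth differed between mice: the median was 8483, 1602, 4705, 3825 and 9290 UMIs in saline mice 1 and 2 and FMT mice 1, 2 and 3. Of 15 cells under 1000 UMIs, 11 came from saline mouse 2 and 3 from saline mouse 1. Without the 15 cells the difference in the share of kept cells given below was -0.397 percentage points (exact permutation p = 0.2, groups not overlapping).

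The profile was that of secondary granule production. Levels below are pooled CPM over the 87 cells, over the 313 mature cells and over all kept cells that were not neutrophils; because the rule used the contrast with mature cells, these values are a description without a test. Camp, the cathelicidin antimicrobial peptide, stood at 47920, 10.64 and 31.19 CPM. Ngp, neutrophilic granule protein, stood at 33610, 26.13 and 26.05 CPM. Ltf, the iron-binding lactoferrin, stood at 4973, 0.968 and 5.353 CPM. The alarmins S100a8 and S100a9 were at 176400 and 166300 CPM, against 65860 and 71300 CPM in mature cells. Together the 5 genes of the rule made up 42.9% of the UMIs of these cells and 13.7% in mature cells, and such a share lowers the CPM of every other gene.

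Most secondary granule genes that the rule did not name were also higher in these cells. With Camp, Ngp and Ltf left out, 12 of the 13 genes on this list could be compared, and 9 were at least 2-fold higher in immature than in mature cells and 0 were at least 2-fold lower, with a median log2 ratio of 2.24; over all 4967 genes compared 6.16% were at least 2-fold higher, 33.5% at least 2-fold lower and the median was -0.67. Lcn2, the siderophore-binding lipocalin, was at 16540 CPM against 1862, and was detected in 87 of 87 cells. Chil3, a chitinase-like protein, was at 3499 against 568 CPM, and Wfdc21, a secreted whey acidic protein of neutrophils, at 6221 against 1726. Cd177, a surface protein that is also stored in these granules, was at 778 against 52.25 CPM, and Cybb, the membrane subunit of the phagocyte oxidase, at 965.6 against 152.9. Orm1, an acute phase glycoprotein, was at 245.8 CPM against 1.935. The haptoglobin gene Hp (1877 against 2602 CPM) and Chil1 (174.5 against 217.7 CPM) were not higher. Olfm4, a granule gene found in only a subset of human neutrophils, was seen in 4 cells.

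For the primary granule genes the direction turned on 2 cells. Over all cells, of 9 such genes compared 0 were 2-fold higher and 3 were 2-fold lower, about the share of all genes: elastase, Elane, was at 520.6 CPM against 595.1, proteinase 3, Prtn3, at 620.9 against 1109, and myeloperoxidase, Mpo, at 98.88 against 440.3. The mature class owed these transcripts to few cells, since 1 cell of saline mouse 1 held 2231 of its 2915 UMIs of Mpo, Elane, Prtn3 and Ctsg, so that class is not purely mature. Without that cell, a setting chosen after the values were seen, the sum of the 4 genes was 695.9 CPM in the mature class against 1272 CPM in immature cells, and 5 of the 9 genes were 2-fold higher in immature cells and 2 lower. Without the 2 highest cells, both of saline mouse 1, the mature class held 62.64 CPM, and 7 genes were 2-fold higher and 1 lower. In saline mouse 2 the 4 genes stood at 1732 CPM in immature and 124 CPM in mature cells, but 1 cell held 279 of the 281 immature UMIs. The other libraries did not share this direction. Immature against mature cells stood at 1620 against 10000 CPM in saline mouse 1. The values were 0 against 0 in FMT mouse 1, 0 against 14.65 in FMT mouse 2 and 46.31 against 98.94 CPM in FMT mouse 3. No immature cell was left out in these settings.

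Genes of later stages did not share the pattern of the secondary granule genes. The genes listed here as gelatinase granule genes, Mmp8 among them, were mixed. Of 8 compared 1 was at least 2-fold higher in immature cells and 3 were at least 2-fold lower. Mmp8, neutrophil collagenase, was at 542.4 against 293.2 CPM, Mmp9, gelatinase B, at 1008 against 1009, and Retnlg, a resistin-like protein, at 7016 against 12830. Of 21 genes of mature and activated neutrophils 18 were 2-fold lower and 0 higher, against 33.5% and 6.16% of all genes. Among them Il1b, encoding interleukin 1 beta, was at 101.8 CPM against 3679, Cxcr2, the chemokine receptor of circulating neutrophils, at 151.2 against 680.3, and Ccl6 at 222.5 against 1902. Csf3r, the receptor of the growth factor G-CSF, was at 110.5 against 1434 CPM. Interferon response genes were 2-fold lower for 25 of 35 genes, against 33.5% of all genes. They were led in size by Ifitm1, at 257.4 against 6422 CPM.

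**Figure D2:**
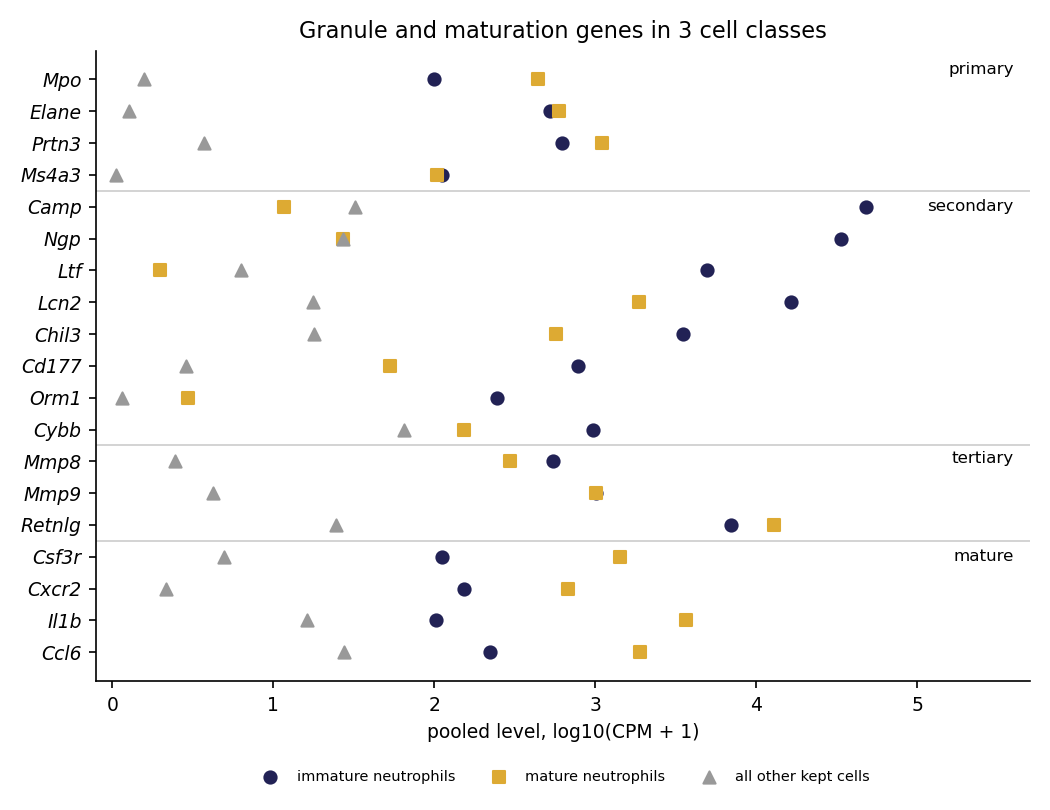
Pooled level (log10 of CPM + 1) of granule and maturation genes in the 87 immature neutrophils, 313 mature neutrophils and all other kept cells. The secondary granule genes shown, a selection without Hp and Chil1, are highest in the immature cells, and Camp, Ngp and Ltf belong to the rule. Csf3r, Cxcr2, Il1b and Ccl6 are highest in the mature cells.

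Regulators and cell division genes also differed between the classes. Cebpe, which encodes C/EBP epsilon, was at 461 CPM against 24.19 in mature cells and 0.2497 CPM in cells that were not neutrophils, and it was detected in 58 of 87 cells. Cebpb, a family member used in mature and emergency granulopoiesis, was at 397 against 1673 CPM, and Spi1, which encodes PU.1, at 469.7 against 1033. Gfi1, a repressor needed for neutrophil formation, was at 13.09 CPM and the stem cell genes Cd34 and Flt3 were at 0 UMIs. Of 23 cell cycle genes compared 17 were 2-fold higher and 0 lower, against 6.16% and 33.5% of all genes. The proliferation marker Mki67 was at 109.1 against 4.838 CPM and the topoisomerase Top2a at 87.25 against 3.871. Their transcripts lay in few cells, 12 of 87 for each gene. The purine and inosine list showed nothing of its own: 4 of 12 genes compared were 2-fold lower, about the 33.5% of all genes, and 2 were higher, adenosine deaminase, Ada (45.08 against 6.774 CPM), and adenine phosphoribosyltransferase, Aprt (398.4 against 127.7 CPM).

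The 87 cells were not uniform. Across them the summed CPM of Camp, Ngp and Ltf was compared with 435 other genes by rank correlation, given as a description because all genes of a cell share its depth. Chil3 was most like the 3 genes (Spearman rho 0.636 over 87 cells, 0.731 over the 72 cells of at least 1000 UMIs), followed by Lcn2 (0.508), the chromatin protein gene Hmgn2 (0.505), Orm1 (0.469) and Ifitm6 (0.404); Lyz2, Cyba, Serpinb1a, Cebpe and Arhgdib completed the first 10 (0.383 to 0.338). Mmp8 (-0.647), Grina (-0.644) and Ifi27l2a (-0.619) were least like them, and Ccl6 (-0.587) and Retnlg (-0.585) stood close by.

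The cells were also divided by Elane and Camp, with thresholds of 10 UMIs chosen after the values were seen. An order among the cells was not tested. In 6 cells with at least 10 Elane UMIs, Elane and Prtn3 stood at 2545 and 2957 CPM, Mki67 was detected in 5 of 6 cells, and Mmp8, Mmp9 and Cxcr2 had 0 UMIs. These 6 cells were also deep, at 20462 to 27974 UMIs, and Camp was at 52270 CPM in them while Ltf was at 1507 CPM. The largest set, 65 cells, had Camp at 54260 CPM, Ltf at 6758 CPM, Lcn2 at 20810 CPM and Elane at 0 UMIs. In the remaining 16 cells Camp had fewer than 10 UMIs and stood at 592.1 CPM; Retnlg was at 43780 CPM, Mmp8 at 2329 CPM, Cxcr2 at 671.1 CPM and Il1b at 855.3 CPM, and Mki67 had 0 UMIs. Elane and Camp were used to form the sets, so their values only describe the sets. Of the 6 Elane cells 5 were from saline mouse 1, 1 from saline mouse 2 and 0 from FMT mice; the 16 cells with little Camp were 5, 4, 2, 3 and 2 in saline mice 1 and 2 and FMT mice 1, 2 and 3. Both cells of FMT mouse 1 belonged to the set with little Camp, and 1 of them was a likely doublet.

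**Figure D3:**
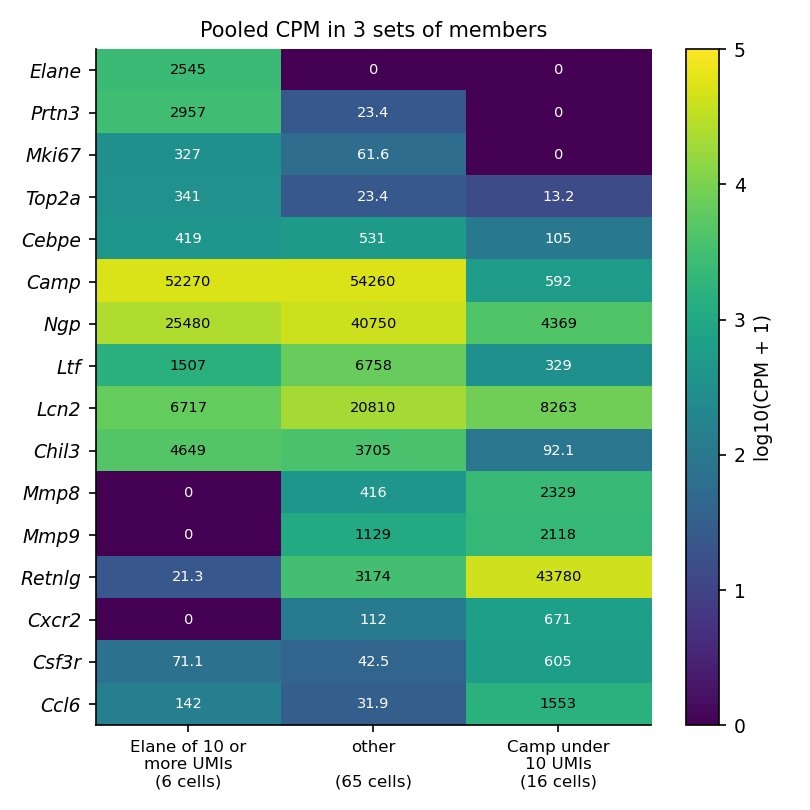
Pooled CPM (numbers and colour, log10 of CPM + 1) of 16 genes in immature neutrophils divided by Elane and Camp UMIs. Elane and Prtn3 are confined almost wholly to the first set, Camp and Ltf are high in the first 2 sets, and Retnlg and Mmp8 are highest in the third.

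The share of immature neutrophils was lower in each FMT mouse than in both saline mice. They made up 0.668% (35 of 5242 kept cells, exact 95% binomial interval 0.465 to 0.927) and 0.917% (30 of 3273, 0.619 to 1.31) of cells in the saline mice, and 0.0317% (2 of 6312, 0.00384 to 0.114), 0.163% (8 of 4906, 0.0704 to 0.321) and 0.420% (12 of 2858, 0.217 to 0.732) in the FMT mice. The groups did not overlap, at 0.792% ± 0.176 (SD, n = 2) against 0.205% ± 0.197 (SD, n = 3), a ratio of saline to FMT of 3.87. A two-sided exact permutation test over mice gave p = 0.1 for the 2 against 3 mice, the smallest value this design allows, and 0.1 after adjustment over both shares tested. The intervals cover counting error only. The permutation p ranks the observed difference among all splits of these samples, whose differences may be technical in part. The gene tests below rest on the spread between libraries, which in the immature fit is that of the saline libraries alone.

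Counted within neutrophils alone, the same order was found. In the saline mice 28.2% (35 of 124) and 38.5% (30 of 78) of neutrophils were immature, and in the FMT mice 5.56% (2 of 36), 14.8% (8 of 54) and 10.3% (12 of 117). All FMT mice lay below both saline mice, at 10.2% ± 4.63 (SD, n = 3) against 33.3% ± 7.24 (SD, n = 2; exact permutation p = 0.1 for 2 against 3 mice, adjusted p = 0.1). Neutrophils thinned to 1000 UMIs each, with at least 5 of the Camp, Ngp and Ltf UMIs left, gave 27.0% and 23.8% in saline mice against 0.0%, 12.2% and 10.3% in FMT mice. Mature neutrophils did not separate the groups: among kept cells they were 1.68% and 1.37% with saline, against 0.523%, 0.917% and 3.57% with FMT. FMT mouse 3 had the highest share of neutrophils of all 5 mice, 4.09% of kept cells against 2.37% and 2.38% in saline mice, yet 10.3% of its neutrophils were immature. The tubule cells' share with a Camp, Ngp or Ltf UMI, given above, was also highest in the saline mice, with FMT mouse 3 next; its part in these shares was not tested.

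**Figure D4:**
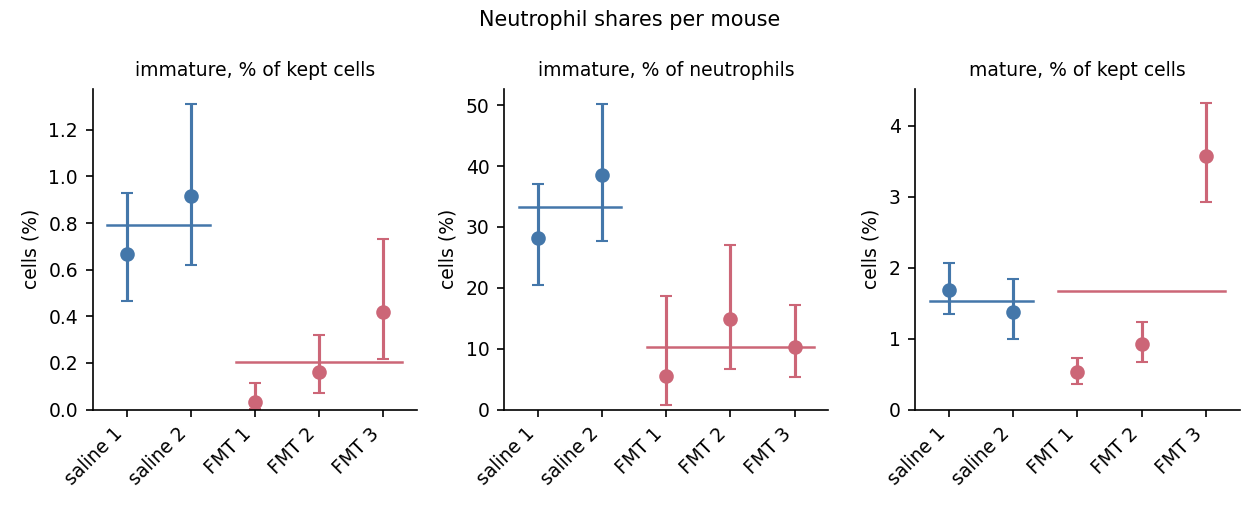
Immature neutrophils as a percentage of kept cells and of neutrophils, and mature neutrophils as a percentage of kept cells, in each mouse (points, exact 95% binomial intervals; horizontal lines, group means). Both immature shares lie lower in all 3 FMT mice than in both saline mice, while the mature share overlaps.

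Within immature neutrophils, FMT and saline were compared on UMIs summed per mouse, among mice with at least 10 such cells. That left both saline mice and FMT mouse 3, so the FMT arm rested on 1 library of 12 cells, assumed to vary like the saline libraries. edgeR's quasi-likelihood test with Benjamini-Hochberg adjustment over 1848 genes called 42 at an adjusted p under 0.05, of which 10 (0.541% of those tested) were higher and 32 (1.73%) lower in FMT. DESeq2 called 0 genes at the same threshold, with 31 at an unadjusted p under 0.05 against 195 by edgeR. With library totals in place of TMM scaling the split was 5 higher and 39 lower, and the median log2 fold change of all genes moved from -0.10 to -0.28. When mice with at least 5 cells were admitted, which added FMT mouse 2, 6 genes were called, all of them lower: Elane, Prtn3, Stmn1, Hist1h2ap, Dbi and Ptma. That fit called 0 genes without FMT mouse 3 (250 at an unadjusted p under 0.05) and 130 without saline mouse 2, and the fit on 3 mice called 13 when the likely doublet of saline mouse 1 was left out.

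The primary granule genes Elane, Prtn3 and Mpo were called lower in this fit, on 1 FMT library of 12 cells. Elane had 228 and 130 UMIs in saline mice 1 and 2, or 627 and 801.1 CPM, and 0 UMIs in each of the 3 FMT mice (log2 fold change -10.18 ± 1.65 SE, edgeR adjusted p = 6.92e-07). Pooled over mice the saline level was at least 36.7-fold higher than the level that 3 UMIs over the FMT group would give. Prtn3 was at 860.7 and 671.7 CPM against 0, 0 and 46.31 CPM (-3.90 ± 0.86, adjusted p = 0.00152), and Mpo at 90.75 and 215.7 CPM against 0 in the FMT mice (-7.90 ± 1.59, adjusted p = 0.000472). For these genes FMT and saline mice did not overlap. The share of all tested genes without overlap is not given, here or below. A lack of overlap is therefore a description and adds no support to a call. FMT mouse 1 supplied 2 cells with 9410 UMIs in all, where 1 UMI stands for 106.3 CPM. Of 6 primary granule genes tested 3 were called lower and all 6 had negative fold changes, where 1.73% of all genes were called lower and 999 of 1848 were negative; genes at 0 in the FMT library passed the filter on low counts through their level in saline, so these counts are a description. With FMT mouse 2 admitted, Elane (edgeR adjusted p = 0.00349) and Prtn3 (0.0147) stayed called and Mpo (0.125) did not, and with DESeq2 the adjusted p of Elane, Prtn3 and Mpo was 0.1, 0.124 and 0.999. The saline transcripts came from few cells: 6 of 65 saline cells held Elane, 1 of them with 48.3% of the UMIs, and 0 of 22 FMT cells did.

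The share of cells with any UMI of Mpo, Elane, Prtn3 or Ctsg was 16.9% in saline cells (11 of 65, exact 95% interval 8.76 to 28.3) and 4.55% in FMT cells (1 of 22, 0.115 to 22.8), with median depths of 6048 and 5820 UMIs. Thinned to 1000 UMIs, which left out 14 saline cells and 1 FMT cell, it was 13.7% in saline cells and 0.0% in FMT cells, with an upper bound of 16.1% for the latter. In proximal tubule cells, which lack these genes, the share was 0.273%. These intervals pool the cells of several mice and cover counting error only. By mouse, the unthinned share was 22.9% (8 of 35) and 10.0% (3 of 30) with saline, and 0.0% (0 of 2), 0.0% (0 of 8) and 8.33% (1 of 12) with FMT. The groups did not overlap, and a two-sided exact permutation test over the 2 and 3 mice, added after the values were seen, gave p = 0.2, where 0.1 is the smallest this design allows. All 9 cells with at least 20000 UMIs were from saline mice, and 6 of these 9 were the Elane cells.

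Among the genes called lower were histone genes and genes of the cell cycle list. Hist1h2ap, a replication-dependent histone gene, was at 899.2 and 665.6 CPM in saline mice against 0, 90.12 and 55.57 CPM in FMT mice (log2 fold change -3.67 ± 0.84 SE, edgeR adjusted p = 0.00263). Rrm2, a subunit of ribonucleotide reductase, was at 63.25 and 135.6 CPM against 0 in the FMT mice (-7.28 ± 1.90, adjusted p = 0.0113), and Dut, the dUTPase, at 63.25 and 123.3 CPM against 0 (-7.20 ± 2.01, adjusted p = 0.0219). Top2a was at 112.7 and 110.9 CPM against 0, 0 and 9.261 CPM (-3.38 ± 0.94, adjusted p = 0.0219). Saline and FMT mice did not overlap for any of these 4 genes, but they were picked among the called genes, so this only describes them. With 1 UMI standing for 106.3 CPM in FMT mouse 1, its 0 for Rrm2, Dut and Top2a carries little weight. Of 14 cell cycle genes tested 13 had negative fold changes, against 999 of all 1848 genes. Ube2c, a mitotic ubiquitin-conjugating enzyme, was the exception at 0.36 ± 0.61. Genes at 0 in the FMT library passed the filter on low counts through their level in saline, so these counts are a description. Hist1h2ae and Hist1h1b were also called, at 74.25 and 154.1 CPM and at 85.25 and 123.3 CPM in saline mice against 0 in the FMT mice, and so was the chromatin protein gene Dek, at 63.25 and 123.3 CPM against 0, 22.53 and 0 CPM. Without the 6 cells with at least 10 Elane UMIs, a setting chosen after the data were seen, 28 genes were called, 22 of them among the 42. Leaving these cells out removed all UMIs of Elane and Mpo by construction, and neither gene, nor Prtn3, Hist1h2ae, Hist1h1b, Rrm2, Top2a, Dek or Dut, could be tested any more. Of the other histone and cell cycle calls, Hist1h2ap (log2 fold change -2.16, edgeR adjusted p = 0.083), Stmn1 (-2.24, 0.111) and Hist1h1d (-6.71, 0.455) remained negative and were no longer called.

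A few of the other lower genes came from many cells of both saline mice. Ndufab1, an acyl carrier protein of mitochondria, was seen in 24 saline cells and stood at 112.7 and 147.9 CPM in saline mice against 106.3, 67.59 and 18.52 CPM in FMT mice, without overlap (-2.61 ± 0.79, edgeR adjusted p = 0.0438). Erh was seen in 20 saline cells, at 110 and 92.44 CPM against 106.3, 45.06 and 9.261 CPM (-3.26 ± 0.98, adjusted p = 0.0434), and the mitochondrial chaperonin gene Hspe1 in 16, at 112.7 and 98.6 CPM against 318.8, 22.53 and 9.261 CPM (-3.31 ± 0.96, adjusted p = 0.032). For Erh and Hspe1 FMT mouse 1 lay among or above the saline mice. Pebp1, a kinase inhibitor protein, was seen in 17 saline cells, at 60.5 and 141.7 CPM, and stood at 425.1 CPM in FMT mouse 1, the mouse with 2 cells and the most proximal tubule transcripts, and at 0 in the other FMT mice. With FMT mouse 2 admitted, Ndufab1, Erh and Hspe1 had an adjusted p of 0.189, 0.187 and 0.164, and Pebp1 was not tested.

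Most of the remaining lower calls followed 1 library or 1 cell. S100a4, a calcium-binding protein, was at 286 CPM in saline mouse 1 and at 0 in the other 4 libraries (-8.05 ± 1.60, edgeR adjusted p = 0.00023), from 4 cells. Sod2, the mitochondrial superoxide dismutase, was called lower on FMT mouse 3 (0 CPM) although FMT mouse 1 had the highest level of all 5, 318.8 CPM. The 8 mitochondrial genes among the 32 lower calls followed saline mouse 2: mt-Cytb was at 585.7 and 8850 CPM in the saline mice against 5207, 495.7 and 314.9 CPM, and 1 saline cell held 71.5% of the saline UMIs of this gene. With cells of 20% or more mitochondrial UMIs left out 24 genes were called, and none of the 8 mitochondrial genes was among them. Both hemoglobin genes called, Hba-a1 and Hba-a2, rested on 1 saline cell with 93.5% and 92.5% of the saline UMIs.

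Among the 10 genes called higher, the levels of Egr1 and Upp1 did not overlap between the groups, on few UMIs. Egr1, an immediate early transcription factor, was at 66 and 6.163 CPM in saline mice against 106.3, 112.7 and 185.2 CPM in FMT mice (log2 fold change 2.21 ± 0.53 SE, edgeR adjusted p = 0.00453), from 24 and 1 UMIs against 1, 5 and 20. Upp1, uridine phosphorylase, was at 13.75 and 98.6 CPM against 425.1, 202.8 and 176 CPM (2.06 ± 0.54, adjusted p = 0.0116), from 5 and 16 UMIs against 4, 9 and 19. With FMT mouse 2 admitted neither was called (adjusted p = 0.198 for Egr1 and 0.189 for Upp1). Apobr, the apolipoprotein B receptor, and Tcp11l2 were higher than both saline mice in FMT mice 2 and 3 and at 0 in FMT mouse 1. The inflammatory genes were high in FMT mouse 3 and not in FMT mouse 2: the chemokine gene Cxcl2 was at 60.5 and 73.95 CPM against 0, 0 and 342.7 CPM (2.50 ± 0.58, adjusted p = 0.00308), Il1b at 27.5 and 123.3 CPM against 956.4, 0 and 287.1 CPM (2.23 ± 0.58, adjusted p = 0.0104), and G0s2, a lipase inhibitor, at 96.25 and 129.4 CPM against 425.1, 45.06 and 416.8 CPM. Single cells carried many of these UMIs: in FMT cells 1 cell held all 16 UMIs of the chemokine gene Ccl3, 92.4% of those of the protease inhibitor Stfa1, 86.7% of those of Erdr1, 72.5% of those of Il1b, 64.7% of those of G0s2 and 45.9% of those of Cxcl2. None of the 10 genes was called with FMT mouse 2 admitted, where Cxcl2, Ccl3 and Erdr1 did not pass the filter on low counts. Erdr1 had 1 UMI in the saline cells and 30 in the FMT cells (6.84 ± 0.78, adjusted p = 7.32e-15).

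**Figure D5:**
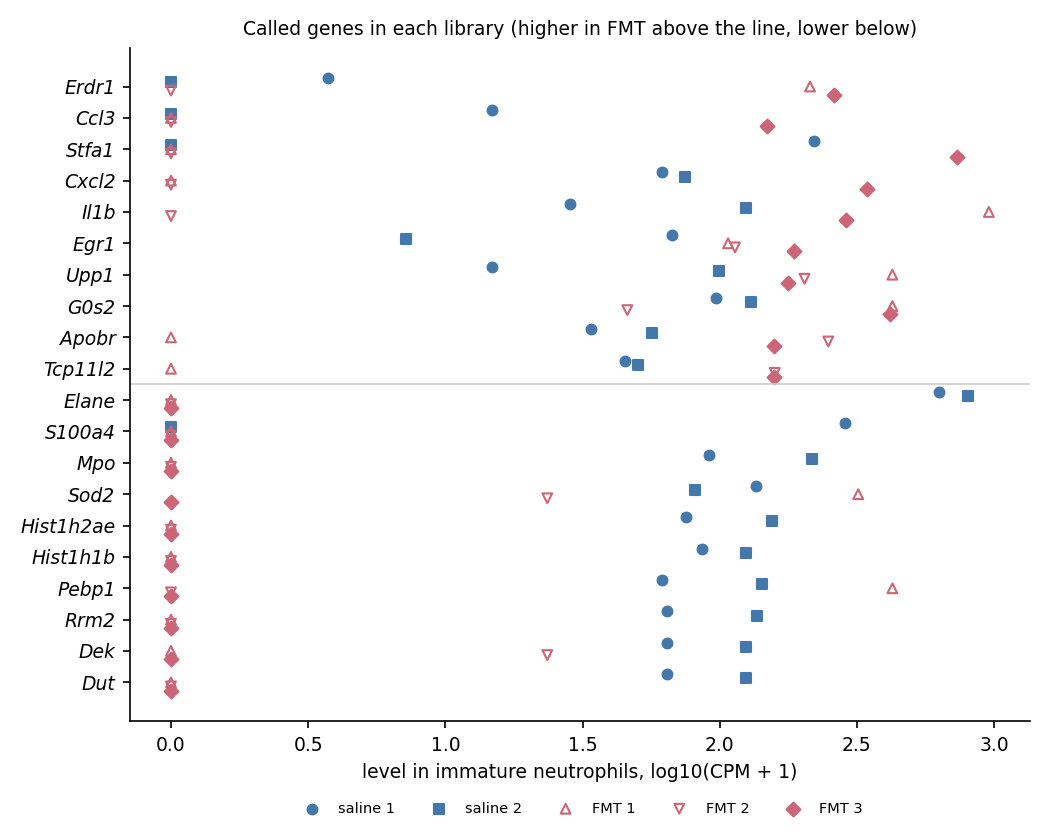
Level (log10 of CPM + 1) of 20 called genes in the immature neutrophils of each library, with saline mice in blue and FMT mice in red. Elane, Mpo, Hist1h2ae, Hist1h1b, Rrm2 and Dut are at 0 in all 3 FMT mice and above 0 in both saline mice, whereas Cxcl2, Stfa1 and Ccl3 are highest in FMT mouse 3 and at 0 in the other FMT mice.

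No gene of the secondary granules was called. Of 12 tested that the rule did not name, 9 had positive and 3 negative fold changes, with a median of 0.46. Camp was at 55400 and 32740 CPM in saline mice against 637.6, 51440 and 48230 CPM in FMT mice (log2 fold change 0.26 ± 0.58 SE, edgeR adjusted p = 0.907), Ltf at 3935 and 5041 CPM against 0, 9868 and 6789 CPM (0.76 ± 0.67, adjusted p = 0.812) and Lcn2 at 13960 and 15010 CPM against 7651, 25980 and 24450 CPM (0.91 ± 0.63, adjusted p = 0.694). FMT mice 2 and 3 were above both saline mice for Ltf and Lcn2, and FMT mouse 1, with its 2 cells, was below. Camp and Ltf belong to the rule, so their level within the cells is partly set by it. All 6 gelatinase granule genes tested had positive fold changes, with 0 called and a median of 1.26; Mmp9 was at 657.2 and 918.2 CPM against 1594, 2298 and 1741 CPM, a difference without overlap (1.31 ± 0.65, adjusted p = 0.451). Retnlg was at 4837 and 7999 CPM against 32090, 10320 and 9336 CPM (0.71 ± 0.66, adjusted p = 0.812), again without overlap. Of 14 genes of mature and activated neutrophils 4 were called higher, Cxcl2, Il1b, Ccl3 and G0s2, and 1 lower, Sod2, where 0.541% of all genes were called higher and 1.73% lower; the 4 higher calls rested largely on single FMT cells, as given above, and none of the 5 was called with FMT mouse 2 admitted.

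No gene was called among 14 interferon response genes (12 positive, median 0.72), 8 purine and inosine genes (3 positive, median -0.56), 11 glycolysis genes (6 positive, median 0.03) or 7 NADPH oxidase genes (6 positive, median 0.37), where the median over all genes tested was -0.10. Ribosomal protein genes had negative fold changes for 78 of 79, with 0 called and a median of -0.93. Their summed level was 88120 and 53680 CPM in saline mice against 48670, 33890 and 34900 CPM in FMT mice, without overlap. In mature neutrophils 79 of 79 were negative, with a median of -0.81, so nothing here sets the immature cells apart.

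In mature neutrophils, which all 5 mice supplied in sufficient number, edgeR called 0 of 2386 genes, with 170 at an unadjusted p under 0.05, and DESeq2 called 0, with 112. The smallest p in each direction belonged to G6pc, glucose-6-phosphatase (log2 fold change 3.12 ± 0.64 SE, edgeR adjusted p = 0.528), and Rpl12 (-1.46 ± 0.32, adjusted p = 0.528). In the same fit 10 of 11 proximal tubule markers had positive fold changes, with a median of 0.84, against 1258 of all 2386 genes. Whether tubule transcripts in these cells account for G6pc was not tested. Prtn3 was negative there too, at 3873 and 73.3 CPM against 0, 14.65 and 74.21 CPM (-5.58 ± 1.28, adjusted p = 0.528), but FMT mouse 3 was above saline mouse 2 and 1 saline cell held 78.9% of the saline UMIs. The difference of the FMT effect between immature and mature cells was tested with mouse as a block in the 3 mice that had both. It reached the threshold for 0 of 3739 genes with edgeR, with 71 at an unadjusted p under 0.05, and for 0 with DESeq2, with 7. The calls in immature cells were therefore not shown to differ from the effect in mature cells.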

How the data were processed

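The authors' deposited matrices hold raw UMI counts per gene and barcode for 5 libraries, 27998 genes each; per the submitters' processing notes they were made with Cell Ranger 2.1.1 on mm10, whereas the file headers name Cell Ranger 4.0.0. The labels' protocol describes a kit for whole-transcript libraries, and the droplet format is per the labels' description and the file headers. Filtering and gates were applied to counts as deposited; genes sharing a symbol were kept apart. The members, gene lists and comparisons were chosen with earlier results of these data known. Doublets were scored with Scrublet through scanpy 1.11.5 at 0.8% per 1000 cells and kept, except in an alternative. Counts were summed per mouse and tested with edgeR 4.0.16 (TMM, filterByExpr, glmQLFit, glmQLFTest; R 4.3.3), with DESeq2 1.42.0 as an alternative; pooled CPM was computed from the summed counts. Shares of cells were tested by exact permutation over mice, on the absolute difference of group means. Medians of fold changes are log2. Each SE given with a fold change is the absolute log2 fold change divided by the square root of the quasi-likelihood F statistic. It was not estimated directly, and in the immature fit no spread between FMT libraries enters it.

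For FMT against saline the text names, in each direction, the 10 called genes of largest fold change whose mean reached 30 CPM (no predicted gene models), or the 5 smallest p where fewer than 5 were called; the other called genes named were chosen after their values were seen. Ratios between classes used genes of at least 20 CPM in either class. Motifs were searched as letters on both strands. No 2 libraries agreed within sampling noise. On simulated counts with 200 genes changed 4-fold, the fit of 2 saline and 1 FMT libraries recovered 29%, that of 2 and 2 recovered 75%, and that of 2 and 3 mature libraries 77%. Same-numbered replicates of the labels share only a number.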

Additional observations from a re-analysis of the deposited data

How the results depend on the processing

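The number of genes called in immature neutrophils was 42, and it became 18 without a filter on low counts, 0 with DESeq2, 13 without likely doublets and 24 with under 20% mitochondrial UMIs. With settings chosen after seeing the data it was 6 with at least 5 cells per mouse and 4 when these cells also had at least 1000 UMIs; in the fit with at least 5 cells, leaving out 1 mouse gave 0 to 130 genes, with 0 without FMT mouse 3 and 130 without saline mouse 2. Without FMT mouse 3 the fold changes of Stfa1, Cxcl2, Il1b and G0s2 reversed to -7.59, -6.67, -6.68 and -1.47. The other 8 alternatives, 4 of them chosen after seeing the data, gave 28 to 53 genes, with 28 when the 6 Elane cells were left out. In mature neutrophils the count moved from 0 to 42 without the filter on low counts and to 0 to 26 on leaving out 1 mouse. With the replicate block it was 23. The deviations of same-numbered mice from their group means correlated at -0.231 and -0.252 over 2386 genes. Those of the 2 saline mice mirror each other by construction. The correlations are therefore not independent and cannot settle whether the numbers pair the samples. No paired analysis was possible because saline mice 1 and 2 and FMT mouse 3, the libraries of the immature fit, share no number; leaving out 1 of these 3, and a minimum of 20 cells, could not be fitted either. The test of the difference between classes gave 1 gene without the filter and 0 otherwise. The cause of these moves was not tested. FMT minus saline was -0.712 to -0.463 percentage points of kept cells on leaving out 1 mouse and -0.628 to -0.397 under the other alternatives, and -28.3 to -18.0 and -24.8 to -17.9 points of neutrophils; the groups overlapped under none of them, and the design could not pass the threshold under any. Depth, 22 FMT cells in all and 1 library in the FMT arm limit what the gene contrast can show.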
